A study of Mus musculus with 13 samples.

Results

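The Slc25 family holds the carriers of the mitochondrial inner membrane, proteins that pass phosphate, nucleotides, amino acids, carboxylates, cofactors and iron between the cytosol and the matrix. Members were taken by name: all genes whose single symbol in the platform annotation begins with Slc25a, apart from the ADP/ATP carriers Slc25a4 and Slc25a5. That gave 42 genes on 81 probe sets, out of 18193 genes with 1 symbol and 45101 probe sets in all. A probe set is the group of short probes that reports 1 transcript on the array, and each gene is represented by its brightest one, by mean over all arrays.

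The arrays were hybridised with total RNA from 1 brain hemisphere of each mouse, all male and of the inbred strain C3HeB/FeJ. In the creatine-fed group, 6 mice had 1% creatine in their pellets for 6 months. In the untreated group, 7 mice ate pellets of the same calorie content without it, and all mice were 10 to 12 weeks old when feeding began. Whole hemispheres mix many cell types, so fewer cells of a type and less RNA per cell cannot be told apart in any value below. The labels call the arrays biological replicates.

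Carriers of this family share a fold of repeated membrane helices and, for the most part, exchange one solute for another. In brain they link glycolysis to respiration: the malate-aspartate shuttle brings reducing equivalents from the cytosol into mitochondria, the phosphate carrier supplies ATP synthesis, and glutamate carriers feed transmitter carbon into the matrix. Creatine draws on the same energy supply through the creatine kinases, and the comparison asks whether carrier transcripts differed after creatine feeding.

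Array medians ran from 37 to 45 intensity units, and Pearson's r between arrays across probe sets from 0.975 to 0.987. Neuronal markers (8 of 8), astrocyte markers (8 of 8) and oligodendrocyte markers (7 of 7 measured) lay above the array median on all 13 arrays. The summed cerebellar markers varied widely between mice in both groups, between 3710 and 10620 in creatine-fed and between 1032 and 14051 in untreated mice, with the lowest sums on creatine-fed replicate 4 and untreated replicate 3. Summed oligodendrocyte markers ran from 17040 to 19167 in creatine-fed and from 18536 to 23208 in untreated mice (6 of 7 genes with a lower mean). Summed astrocyte markers ran from 10076 to 10729 in creatine-fed and from 10675 to 10984 in untreated mice (7 of 8 lower). Summed monoaminergic neuron markers ran from 145 to 272 in creatine-fed and from 239 to 420 in untreated mice (6 of 6 lower). Only 1 of these 6 lay above the array median on all 13 arrays. In other lists, means were lower for 4 of 8 neuronal, 4 of 5 GABAergic and 2 of 7 microglial markers. Of all genes, 58.5% had lower means in creatine-fed mice. The part of these cell types in the carrier values was not tested. Only the cerebellar sum was used as a covariate. The count of called carriers was 0 with it and 0 without it, so this count cannot show what part cell types had.

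No carrier was called. Differences were fitted with limma on log2(intensity + 16) and called at an adjusted p under 0.05 (Benjamini-Hochberg over all 45037 probe sets tested), where 0.00888% of probe sets passed. Of the 42 carriers 0 passed, and of their 81 probe sets 0 passed. The smallest adjusted p of a carrier was 0.204. At an unadjusted p under 0.05 there were 5 carriers, Slc25a44 and Slc25a32 with higher means and Slc25a33, Slc25a34 and Slc25a40 with lower means in creatine-fed mice. That is 11.9% of 42, beside 11.2% of all genes at their brightest probe set. By direction, the 2 with higher means stand beside 3.58% of all genes and the 3 with lower means beside 7.61%. Over probe sets the share was 7 of 81, or 8.64%, beside 11.9% of all probe sets. Without untreated replicate 2, the count of 5 became 3, or 7.14%, beside 11.3% of all probe sets. Whether the carriers reached this level more or less often than other genes was not tested.

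**Figure D1:**
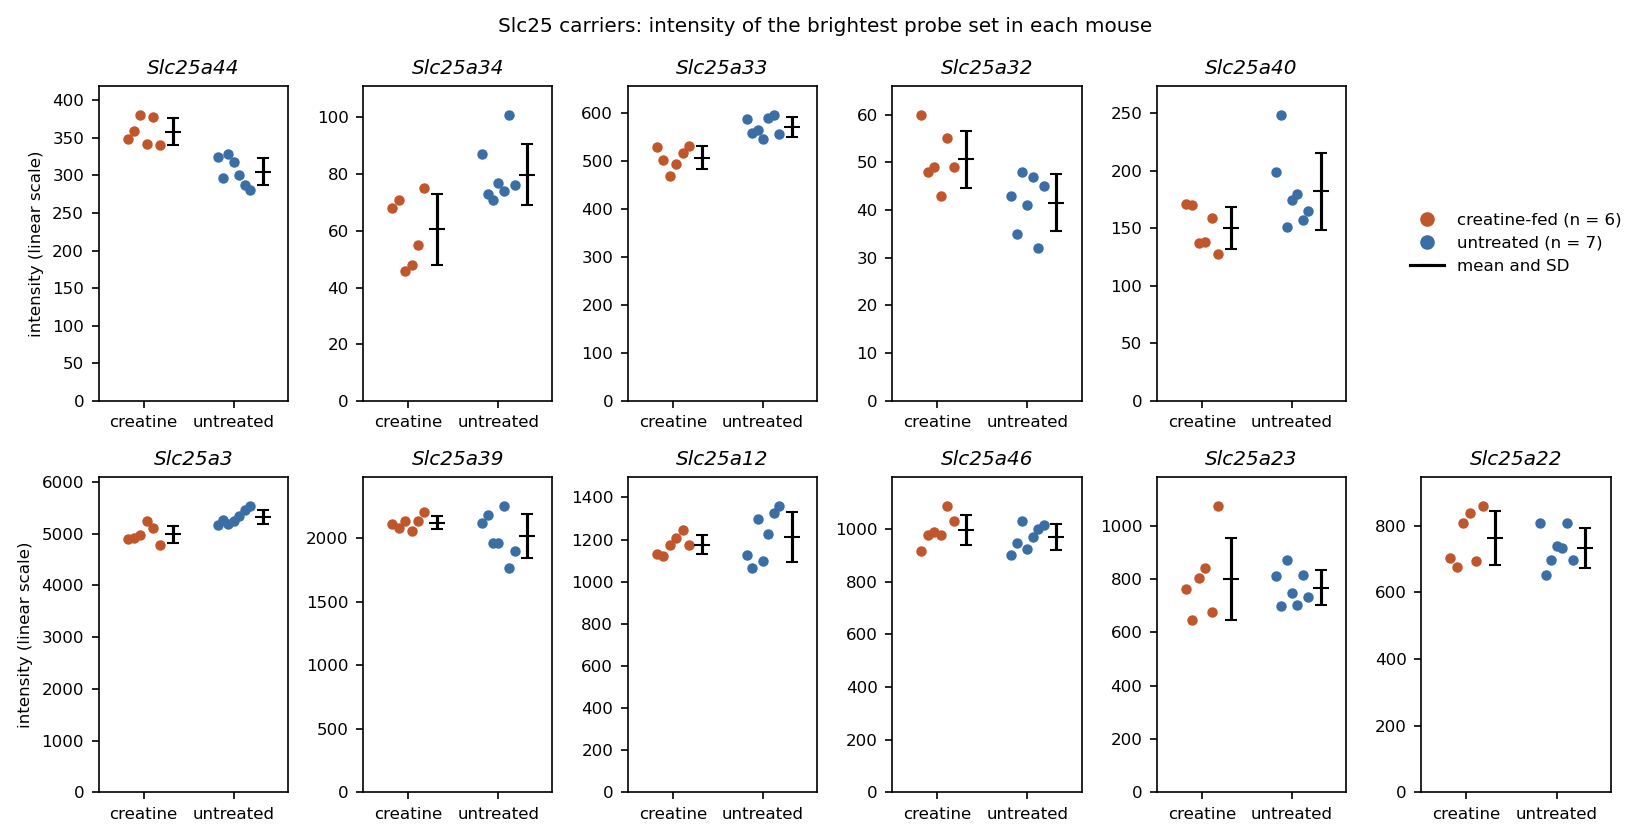
Intensity of the brightest probe set (linear scale, y axis from 0) in each of 6 creatine-fed mice (orange, left) and 7 untreated mice (blue, right), with mean and SD in black. The upper row holds the 5 carriers with an unadjusted p under 0.05 and the lower row the 6 with the highest mean intensity. The groups do not overlap for Slc25a44 and Slc25a33 and overlap in the other panels.

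Slc25a44, the mitochondrial carrier of branched-chain amino acids, had intensities from 340 to 381 (median 354) in creatine-fed mice, against 281 to 328 (median 301) in untreated mice at 1436909_at. Every creatine-fed mouse lay above every untreated mouse. The means were 358 ± 17.8 (SD, n = 6) in creatine-fed and 305 ± 18.4 (SD, n = 7) in untreated mice (log2 difference 0.22 ± 0.06 SE, adjusted p = 0.204). Here and for every gene that follows, means carry the SD over 6 creatine-fed and 7 untreated mice, and a signed value in brackets after them is the log2 difference, creatine-fed minus untreated. Its other probe sets gave less: 1433448_at averaged 287 ± 43.2 in creatine-fed and 274 ± 19.7 in untreated mice, and 1456465_at 50.2 ± 11.7 in creatine-fed and 52 ± 18.65 in untreated mice. Averaged over the 3 probe sets the log2 difference was 0.09.

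Slc25a33, a carrier of pyrimidine nucleotides, ran from 468 to 532 (median 510) in creatine-fed mice, against 546 to 597 (median 564) in untreated mice at 1424211_at. Each untreated value exceeded each creatine-fed one. The means were 507 ± 24.3 (SD, n = 6) in creatine-fed and 571 ± 20.1 (SD, n = 7) in untreated mice (log2 difference -0.17 ± 0.06 SE, adjusted p = 0.266). It has 1 probe set. Slc25a36, the other pyrimidine nucleotide carrier, averaged 599.8 ± 50.6 in creatine-fed and 592 ± 26.0 in untreated mice at its brightest probe set. The log2 difference there was 0.01, with a 95% interval from -0.13 to 0.16. Its other probe sets gave -0.20 at 1419656_at (adjusted p = 0.492) and -0.01 at 1438520_at. At 1419656_at the 6 creatine-fed values were all under the mean of the untreated group. Slc25a44 and Slc25a33 were the 2 of 42 carriers whose groups did not overlap, where 0.649% of all genes had groups apart.

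Slc25a34, a relative of Slc25a35 with no substrate assigned here, had the widest log2 difference of the 42 brightest probe sets at the offset of 16. It ran from 46 to 75 (median 61.5) in creatine-fed and from 71 to 101 (median 76) in untreated mice at 1455506_at. The means of 60.5 ± 12.4 in creatine-fed and 79.9 ± 10.7 in untreated mice gave a log2 difference of -0.33 ± 0.11 (SE, adjusted p = 0.253). The mean of the untreated group was above each of the 6 creatine-fed values, though the ranges overlapped. Slc25a35 averaged 29.7 ± 6.68 in creatine-fed and 37.1 ± 10.3 in untreated mice, below most array medians, with a log2 difference of -0.21 and an adjusted p of 0.575.

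Slc25a40, which with Slc25a39 carries glutathione into mitochondria, ran from 128 to 171 (median 148.5) in creatine-fed and from 151 to 249 (median 175) in untreated mice at 1438005_at. The log2 difference was -0.24 ± 0.11 (SE, adjusted p = 0.398), and the 6 creatine-fed values were all under the mean of the untreated group. Slc25a32, a carrier of folate and flavin cofactor, ran from 43 to 60 (median 49) in creatine-fed and from 32 to 48 (median 43) in untreated mice at 1453149_at. The log2 difference was 0.21 ± 0.09 (SE, adjusted p = 0.347). Its intensities lie close to the array medians, and its other probe sets, 1435483_x_at and 1429462_at, had lower means in creatine-fed mice (log2 differences of -0.16 and -0.09). Averaged over its 3 probe sets the log2 difference was -0.014.

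The stretches of 250 bases before the annotated start of Slc25a33, Slc25a34 and Slc25a40, which had lower means in creatine-fed mice at an unadjusted p under 0.05, are shown beside that of the phosphate carrier Slc25a3. They come from RefSeq on build GRCm38.p6, which the array table does not name. No stretch was listed for Slc25a44 and Slc25a32, which reached the same level with higher means. Slc25a33 lies at chr4:149774268-149774517, Slc25a34 at chr4:141623835-141624084 and Slc25a3 at chr10:91123968-91124217, all on the minus strand, and Slc25a40 at chr5:8422588-8422837 on the plus strand. Capitals mark a match to the core motif of NRF1, a factor of nuclear genes for mitochondria.

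Slc25a33: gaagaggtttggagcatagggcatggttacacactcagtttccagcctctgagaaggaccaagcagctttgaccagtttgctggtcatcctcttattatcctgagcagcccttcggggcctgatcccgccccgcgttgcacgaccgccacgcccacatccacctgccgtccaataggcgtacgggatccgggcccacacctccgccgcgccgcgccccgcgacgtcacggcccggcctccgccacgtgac

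Slc25a34: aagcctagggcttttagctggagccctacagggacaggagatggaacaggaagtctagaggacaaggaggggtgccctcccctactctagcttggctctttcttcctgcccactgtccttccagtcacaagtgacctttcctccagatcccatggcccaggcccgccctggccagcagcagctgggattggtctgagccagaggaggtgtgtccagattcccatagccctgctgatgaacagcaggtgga

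Slc25a40: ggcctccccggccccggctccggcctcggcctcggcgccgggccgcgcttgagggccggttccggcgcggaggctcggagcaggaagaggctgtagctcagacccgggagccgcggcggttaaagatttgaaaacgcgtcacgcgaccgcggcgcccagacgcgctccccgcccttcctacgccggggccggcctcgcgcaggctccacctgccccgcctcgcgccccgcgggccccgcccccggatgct

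Slc25a3: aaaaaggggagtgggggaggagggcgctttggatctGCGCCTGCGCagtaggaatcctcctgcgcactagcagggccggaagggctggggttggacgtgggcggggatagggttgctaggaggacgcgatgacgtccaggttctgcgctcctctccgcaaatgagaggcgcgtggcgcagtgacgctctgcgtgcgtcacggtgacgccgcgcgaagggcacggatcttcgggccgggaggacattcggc

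These stretches held 23 CpG dinucleotides at Slc25a33, 1 at Slc25a34, 40 at Slc25a40 and 27 at Slc25a3. Windows of 300 bases, 250 before to 50 after a start, were listed for 32 of the 42 carriers (41 windows) and searched on both strands. The NRF1 core GCGCNNGCGC was in 3 of the 41, at Slc25a3, Slc25a10 and Slc25a31, and in 6.23% of all 32851 windows. TNAAGGTCA, the site of estrogen-related receptors, was in 0 of the 41 and in 1.28% of all. TGACGTCA, the full site bound by CREB, was in 2, at Slc25a25 and Slc25a36, and in 1.79% of all. The motifs do not contain one another. These are letter matches only.

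Carriers of phosphate, nucleotides and cofactors number 14, and 0 were called. Means were higher in creatine-fed mice for 9 and lower for 5, or 10 and 4 with arrays centred on their medians. Slc25a3, which brings phosphate into the matrix for ATP synthesis, ran from 4784 to 5236 (median 4949.5) in creatine-fed and from 5173 to 5533 (median 5273) in untreated mice. The 6 creatine-fed values were all under the mean of the untreated group, and 1 of them exceeded the lowest untreated value. The log2 difference was -0.09 ± 0.05 (SE, adjusted p = 0.517), with a 95% interval from -0.20 to 0.02. It was -0.03 with quantile normalization, -0.04 with centred arrays and -0.15 averaged over both probe sets. That average gives equal weight to the dim 1440302_at. This second probe set averaged 44.3 ± 13.8 in creatine-fed and 53.4 ± 13.7 in untreated mice (-0.21, adjusted p = 0.657).

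The carriers of ATP-Mg and phosphate set the size of the adenine nucleotide pool in the matrix. Slc25a23 ran from 645 to 1073 (median 784) in creatine-fed and from 697 to 871 (median 749) in untreated mice, a log2 difference of 0.04 ± 0.11 (SE). Creatine-fed replicate 6 gave the 1073, and without it the log2 difference was -0.044. Slc25a25 averaged 214 ± 28.9 in creatine-fed and 220 ± 16.4 in untreated mice (log2 difference -0.05), and the dim Slc25a24 41.2 ± 12.1 in creatine-fed and 35.1 ± 8.23 in untreated mice (0.15). Slc25a41, at 4.33 ± 2.66 in creatine-fed and 1.86 ± 1.07 in untreated mice, and Slc25a31, an ADP/ATP carrier of the testis, at 3.83 ± 2.99 in creatine-fed and 3.14 ± 2.12 in untreated mice, lay under the array median on all 13 arrays.

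Cofactor carriers bring vitamins and their derivatives to the enzymes of the matrix. Slc25a51, which brings NAD into mitochondria, averaged 540 ± 15.5 in creatine-fed and 512 ± 75.6 in untreated mice, a log2 difference of 0.09. For coenzyme A, Slc25a16 averaged 278.5 ± 28.5 in creatine-fed and 259 ± 14.4 in untreated mice (0.09) and Slc25a42 158 ± 20.8 in creatine-fed and 166 ± 12.7 in untreated mice (-0.07). Slc25a17, of the peroxisome, averaged 156.5 ± 22.19 in creatine-fed and 145 ± 12.6 in untreated mice (0.09). Slc25a26, which imports the methyl donor S-adenosylmethionine, averaged 94.5 ± 15.5 in creatine-fed and 110 ± 20.9 in untreated mice (-0.18, adjusted p = 0.574). Creatine synthesis uses the same methyl donor in the cytosol. Its 95% interval, from -0.44 to 0.07, was among the wider ones.

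**Figure D2:**
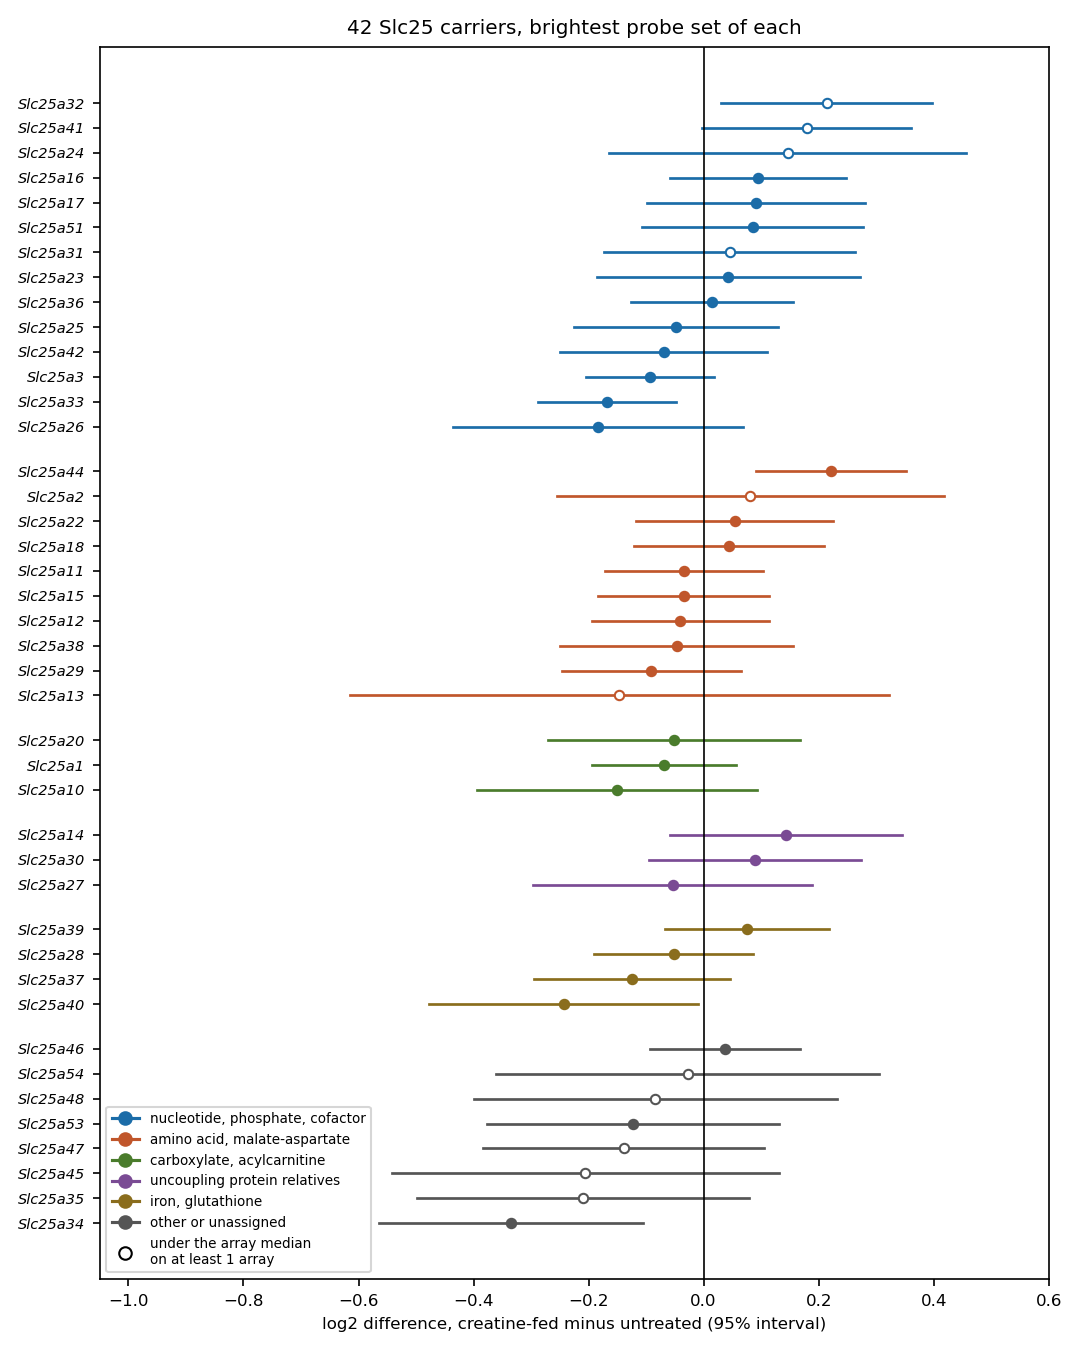
Log2 difference of creatine-fed minus untreated mice at the brightest probe set (x axis), with its 95% interval, for each of the 42 carriers grouped by role from top to bottom. Open points were under the array median on at least 1 array. The interval lies above 0 for 2 carriers and below 0 for 3, before any adjustment for the number of tests.

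Of 10 carriers of amino acids and the malate-aspartate shuttle 0 were called, and 6 had lower means in creatine-fed mice, or 2 with centred arrays. Slc25a12, the aspartate-glutamate carrier of neurons, ran from 1121 to 1245 (median 1175) in creatine-fed and from 1063 to 1359 (median 1227) in untreated mice. The groups overlapped almost fully, with a log2 difference of -0.04 ± 0.07 (SE) and a 95% interval from -0.19 to 0.11. Its other probe sets gave 0.09 at 1436440_at and -0.20 at 1444489_at (adjusted p = 0.454). Slc25a11, the oxoglutarate-malate carrier and its partner in the shuttle, averaged 709 ± 31.8 in creatine-fed and 727 ± 53.2 in untreated mice (log2 difference -0.03, 95% interval from -0.17 to 0.10). Slc25a13, the second aspartate-glutamate carrier and known from liver, was dim at 28.2 ± 8.80 in creatine-fed and 34.4 ± 14.1 in untreated mice, and its interval was the widest of the family, from -0.62 to 0.32.

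Slc25a22, which brings glutamate into mitochondria, ran from 676 to 859 (median 756.5) in creatine-fed and from 653 to 809 (median 732) in untreated mice, a log2 difference of 0.05 ± 0.08 (SE). Slc25a18, the glutamate carrier found in astrocytes, averaged 451 ± 44.6 in creatine-fed and 437 ± 35.5 in untreated mice (0.04). The basic amino acid carrier Slc25a29 averaged 245 ± 22.8 in creatine-fed and 261 ± 17.4 in untreated mice (-0.09). Its 5 probe sets all had lower means in creatine-fed mice as deposited, with log2 differences from -0.09 to -0.007. Creatine synthesis starts from arginine and glycine. Slc25a15, which exchanges ornithine for citrulline, averaged 143 ± 13.8 in creatine-fed and 146 ± 7.70 in untreated mice (-0.03), and Slc25a38, a carrier of glycine for heme synthesis, 128 ± 9.37 in creatine-fed and 134 ± 21.2 in untreated mice (-0.05). Slc25a2, a second ornithine carrier, was under the array median on all arrays.

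The carboxylate and acylcarnitine carriers feed and drain the citric acid cycle. Slc25a1, the citrate carrier, averaged 245.5 ± 7.58 in creatine-fed and 259 ± 15.9 in untreated mice, a log2 difference of -0.07. Slc25a10, the dicarboxylate carrier, averaged 115 ± 19.8 in creatine-fed and 129 ± 18.4 in untreated mice (-0.15), and Slc25a20, which brings in acylcarnitines for fatty acid oxidation, 141 ± 23.3 in creatine-fed and 146 ± 16.9 in untreated mice (-0.05). All 3 had lower means, 2 of 3 with centred arrays, and 0 were called.

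Among the relatives of the uncoupling proteins 0 of 3 were called. Slc25a14, known from brain mitochondria, averaged 658 ± 94.9 in creatine-fed and 592 ± 61.3 in untreated mice (log2 difference 0.14, adjusted p = 0.582), with creatine-fed replicate 4 at 847 and the next at 639. Slc25a27 averaged 311 ± 51.2 in creatine-fed and 323 ± 45.2 in untreated mice (-0.05), and Slc25a30 139.5 ± 10.37 in creatine-fed and 131 ± 16.99 in untreated mice (0.09). Slc25a30 had higher means at all 5 of its probe sets.

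Of the 4 carriers of iron and glutathione 0 were called, and 3 had lower means in creatine-fed mice, with centred arrays too. Slc25a39 ran from 2059 to 2209 (median 2128) in creatine-fed and from 1763 to 2254 (median 1966) in untreated mice at 1439410_x_at, whose suffix marks probes that can match other transcripts. The log2 difference was 0.08 ± 0.07 (SE). The creatine-fed mice lay within the untreated range. The other probe sets gave 0.07 at 1456176_x_at, 0.06 at 1453111_a_at, 0.02 at the dim 1440118_at and -0.11 at 1447783_x_at. At 1447783_x_at the 6 creatine-fed values were all under the mean of the untreated group. The iron carriers are the mitoferrins: Slc25a37, known from red cell precursors, averaged 155.5 ± 19.15 in creatine-fed and 170 ± 13.1 in untreated mice (-0.12, adjusted p = 0.574), and Slc25a28, which acts in other cells, 306.5 ± 18.05 in creatine-fed and 319 ± 22.4 in untreated mice (-0.05). Of 4 measured red cell markers 3 were under the array median on all arrays, and their sum ran from 66 to 199 in creatine-fed and from 77 to 175 in untreated mice.

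The other 8 carriers, most without an agreed substrate, had 7 lower means in creatine-fed mice, or 6 with centred arrays, and 0 calls. Slc25a46, which lies in the outer membrane and acts in mitochondrial shape, ran from 916 to 1087 (median 982) in creatine-fed and from 901 to 1029 (median 969) in untreated mice. Its log2 difference was 0.04 ± 0.06 (SE), and its second probe set, 1418134_at, gave 0.02. Slc25a53 averaged 83.5 ± 13.7 in creatine-fed and 92.6 ± 16.03 in untreated mice (-0.12), and Slc25a45 47 ± 14.2 in creatine-fed and 55.9 ± 12.95 in untreated mice (-0.21, adjusted p = 0.649). Slc25a47 averaged 24.2 ± 4.36 in creatine-fed and 28.6 ± 7.96 in untreated mice, under the array median on 12 of 13 arrays. Slc25a48 averaged 12.5 ± 8.17 in creatine-fed and 13.6 ± 3.95 in untreated mice. Slc25a54 averaged 6.17 ± 3.06 in creatine-fed and 7.00 ± 5.63 in untreated mice. Both Slc25a48 and Slc25a54 were under the array median on all 13 arrays.

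Means were lower in creatine-fed mice for 25 of 42 carriers (59.5%) and for 58.5% of all genes, and with centred arrays for 18 of 42 (42.9%) and 42.5%. The median log2 difference was -0.04 over the carriers and -0.03 over all genes, and 0.008 and 0.025 with centred arrays. Centring shifts every gene by the same amount on the log2 scale. With quantile normalization 59.5% of the carriers and 53.4% of all genes had lower means, and the medians were -0.03 and -0.01. The carriers were not tested against the other genes.

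For the brighter carriers, the arrays bound how large a missed difference could be. The 95% interval lay within 1.5-fold in either direction for 41 of the 42 carriers, the exception being Slc25a13. It lay within 1.25-fold for 25 of them. Among the 31 carriers never under the array median, these counts were 31 and 24. The folds are on the log2(intensity + 16) scale, which understates the change of dim genes. The intervals of dim carriers therefore do not bound their change in intensity. This touches Slc25a34 too, one of the 31, with a mean intensity of 70.9. Its log2 difference was -0.33 with the offset of 16 and -0.41 with an offset of 1. Its interval within 1.5-fold thus applies to the offset scale only. On all 13 arrays 31 carriers lay above the array median and 5 below it, while 6 did neither. For the 31, the coefficient of variation between untreated mice had a median of 8.14%. It was lowest for Slc25a3, at 2.59%, and highest for Slc25a26, at 19.0%.

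**Figure D3:**
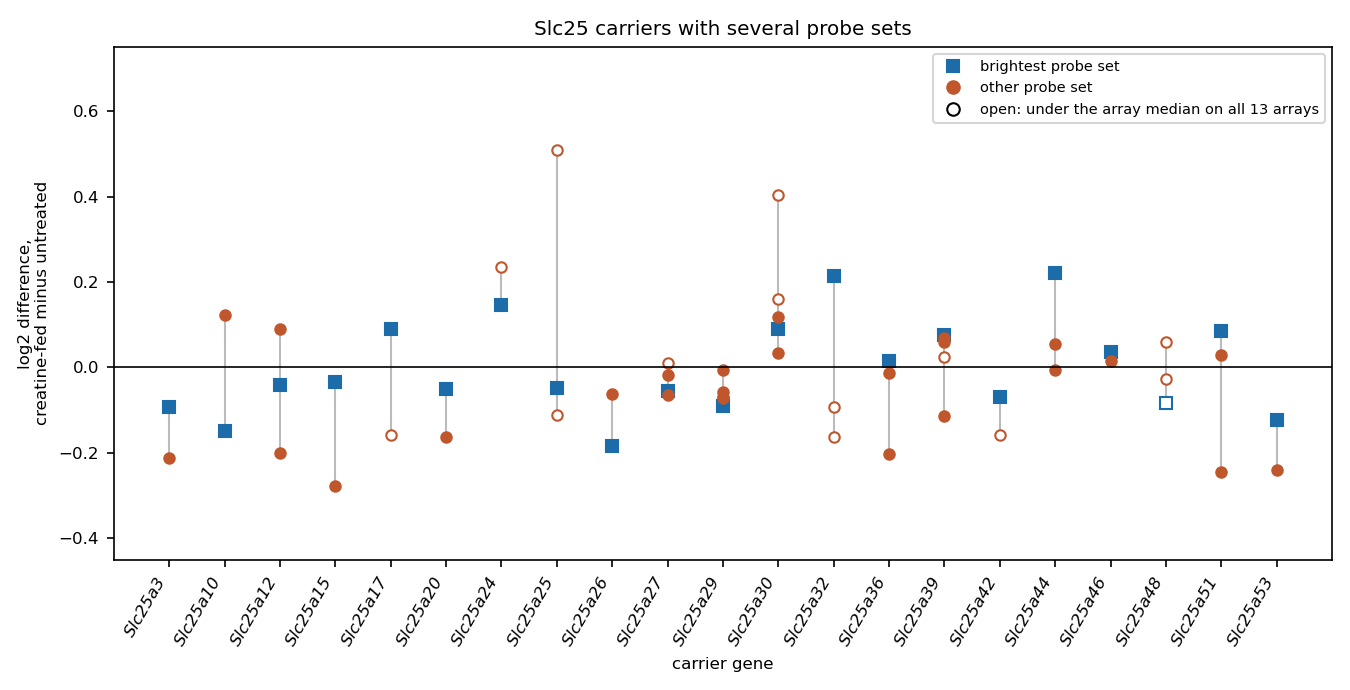
Log2 difference of creatine-fed minus untreated mice (y axis) at every probe set of the 21 carriers that have several (x axis). Squares are the brightest probe set, circles the others, and open symbols were under the array median on all 13 arrays. In 10 of the carriers all probe sets share a sign, and in 11 they do not.

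For 11 of the 21 carriers with several, they lay on both sides of 0. Beyond the 5 brightest probe sets already given, 2 others reached that level, named here after their values were seen. They were 1447856_x_at of Slc25a25, at 25.2 ± 5.91 in creatine-fed and 13.9 ± 9.42 in untreated mice (log2 difference 0.51, adjusted p = 0.284), and 1425948_a_at of Slc25a30, at 23 ± 6.48 in creatine-fed and 13.9 ± 7.06 in untreated mice (0.40, adjusted p = 0.342). Both were under the array median on all 13 arrays.

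Genes that work with these carriers, and carriers under other symbols such as Ucp1 and Ucp3, were also not called. Of 67 listed, 59 were matched and 0 passed, and 4 of them (6.78%) had an unadjusted p under 0.05, all with lower means in creatine-fed mice, beside 11.2% of all genes in either direction and 7.61% with lower means. Means were lower for 36 of the 59 (61.0%), beside 58.5% of all genes, or for 20 of the 59 with centred arrays. Carrier proteins are made in the cytosol and brought in by receptors of the outer membrane and small chaperones of the space between the membranes. Tomm20, one such receptor, ran from 2123 to 2295 in creatine-fed and from 2332 to 2455 in untreated mice, so the groups did not overlap, as for 0.649% of all genes. The means were 2208 ± 62.8 in creatine-fed and 2391 ± 44.0 in untreated mice (log2 difference -0.11 ± 0.05 SE, adjusted p = 0.394). Timm9, one of the chaperones, ran from 83 to 129 in creatine-fed and from 102 to 156 in untreated mice (log2 difference -0.26, adjusted p = 0.386). Tomm70a, another receptor, averaged 1746 ± 91.0 in creatine-fed and 1763 ± 98.8 in untreated mice (-0.01). Tomm40 had a higher mean, at 433 ± 37.3 in creatine-fed and 393 ± 15.3 in untreated mice (0.13, adjusted p = 0.452). Of 13 import genes, 9 had lower means, or 3 with centred arrays.

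Mfn1, a factor of mitochondrial fusion, ran from 300 to 391 in creatine-fed and from 378 to 420 in untreated mice, with means of 343 ± 33.1 in creatine-fed and 397 ± 16.9 in untreated mice (log2 difference -0.20, adjusted p = 0.266). The urea cycle enzyme Asl ran from 79 to 115 in creatine-fed and from 106 to 146 in untreated mice (-0.20, adjusted p = 0.400). The enzymes of the malate-aspartate shuttle showed differences of both signs that did not pass: the log2 difference was -0.10 for Got1, 0.08 for Got2, -0.06 for Mdh1 and 0.06 for Mdh2. Mpc1, a subunit of the pyruvate carrier, averaged 1632 ± 26.5 in creatine-fed and 1730 ± 130 in untreated mice (-0.08), and Mtch2, a relative of the family in the outer membrane, 618 ± 32.9 in creatine-fed and 627 ± 59.2 in untreated mice (-0.02).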

How the data were processed

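The deposited table holds 1 intensity per probe set and array on a linear scale, in whole numbers that include 0. Per the submitters' processing notes the tool was RMA, which returns log2 values, so the deposited values contradict it; how they were scaled is not given in the sources used here, and they were analysed as deposited. After 64 control probe sets were set aside, 45037 were tested without a filter. Differences were fitted with limma 3.58.1 in R 4.3.3 on log2(intensity + 16), 2-sided, without covariates. Gene symbols came from the platform annotation (34945 probe sets with 1 symbol, 932 with several, 9160 with none listed), and no member symbol differed in the gene reference. The p-values set the difference between groups against the spread between arrays within groups, and the number of arrays limits precision.

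Members, lists, the offset and the alternatives were chosen with earlier results of these data known. Named with every value range are carriers with an unadjusted p under 0.05 at their brightest probe set and the 6 with the highest mean; other carriers are given by group means, and related genes where the unadjusted p was under 0.05, a few others being chosen after their values were seen. Alternatives were offsets of 1 and 50, quantile normalization, centring each array, the 22519 brighter probe sets, eBayes with trend and robust, a replicate block, array weights, the 3'/5' ratio of control probe sets, leaving out each mouse or a pair, updated symbols and averaging the probe sets of each gene. Added after seeing the data were the cerebellar marker sum as a covariate and leaving out creatine-fed replicate 4 with untreated replicate 3. Plots used Python 3.11.15 with matplotlib 3.10.9.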

Additional observations from a re-analysis of the deposited data

Results flagged for a closer look

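Among 84 groups tested, 42 carriers in each of the 2 feeding groups, 3 held a mouse whose gap to the nearest other one exceeded Dixon's 95% critical value; chance flags about 1 in 20 groups. Creatine-fed replicate 4 had an intensity of 847 for Slc25a14, with the next mouse at 639. Untreated replicate 1 had 296 for Slc25a29, with the next at 263. Untreated replicate 3 had 4 for Slc25a41, with the next at 2, at the bottom of the measured range.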

How the results depend on the processing

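The count of called carriers was 0 under each of the 26 alternatives run and with updated symbols, and so were the counts of called member probe sets, where fitted per probe set, and of called related genes. The smallest adjusted p of any carrier, 0.0768, was that of Slc25a44 among the brighter probe sets. The count at an unadjusted p under 0.05, 5 as reported, ran from 3 to 6 when each mouse was left out, with the 3 given by leaving out untreated replicate 2. Of the 11 carriers named with value ranges, 8 kept their sign throughout. The exceptions were Slc25a12, at 0.011 after centring each array, Slc25a32, at -0.014 with the mean of its probe sets, and Slc25a23, which ran from -0.044 to 0.10 when each mouse was left out, the -0.044 without creatine-fed replicate 6. Among all 42, centring turned the most signs, 7. With the replicate block the unadjusted count was 6 and 0 were called. The labels do not say that equal replicate numbers mark pairs. Of the 6 pairs 1 had deviations correlated over 0.1, and 2 of 12 arrays correlated best with their own number. Whether arrays of equal number shared a batch was not tested beyond these values. Without creatine-fed replicate 4 and untreated replicate 3 the unadjusted count was 5, without creatine-fed replicate 2 and untreated replicate 3 also 5, and with the cerebellar covariate 6. Over all probe sets 4 were called as reported, 0 with an offset of 1 and 0 with the replicate block, 13 with array weights, 36 with an offset of 50, 137 among the brighter probe sets and 161 with trend and robust eBayes. Leaving out each mouse gave 0 to 6, with 0 when creatine-fed replicate 3 or 5 or untreated replicate 2, 3, 4, 5 or 6 was out. Over every alternative the log2 difference of Slc25a3 ran from -0.15 to -0.03, of Slc25a39 from 0.02 to 0.13, of Slc25a22 from 0.01 to 0.11, of Slc25a46 from 0.01 to 0.09 and of Slc25a44 from 0.09 to 0.27. The cause of these changes was not tested. Intensities near or under the array median limit what can be said of the dim carriers.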
